A study of Mus musculus with 24 samples.

Results

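The unfolded protein response and the integrated stress response are described here through 36 genes, listed by name and taken from the 19895 rows of the deposited mouse table by gene symbol. The rule for the list uses no measured value, although the list was drawn up with earlier results of these data known. Of these, 32 had a row of their own and all 32 passed the filter of a count above 0 in every library, among 11438 genes tested. The other 4 (Ddit3, Pdia6, Syvn1 and Ppp1r15a) shared a row with a neighbouring gene, and their reads could not be separated.

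Mouse pancreatic ductal organoids are three-dimensional cultures grown from duct cells. Normal organoids (N) were wildtype, and tumour organoids (KP) carried p53 R172H. Each type received vehicle (DMSO) or 10 nM CR-31, named CR1-31-b in the labels, for 1 h. CR-31 is a rocaglate, a compound that clamps the helicase eIF4A onto RNA and hinders the scanning of mRNA leaders by the ribosome. From each lysate, total mRNA and the polysome-associated mRNA (transcripts carrying 3 or more ribosomes, after cycloheximide in the last 5 min) were sequenced, which gave 8 groups of 3 libraries. All groups were kept without EGF and N-acetylcysteine during the experiments. Labels do not state whether replicates were separate cultures or animals, so p-values measure only the spread between these libraries.

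Secretory proteins fold in the endoplasmic reticulum (ER), and when unfolded proteins build up there, the membrane sensors Ire1 (gene Ern1), Perk (Eif2ak3) and Atf6 are activated. Ire1 splices Xbp1 mRNA, Atf6 is cut to release a transcription factor, and both raise ER chaperones and the machinery of ER-associated degradation. Perk phosphorylates eIF2alpha, as other kinases do under amino acid shortage or viral infection, which lowers translation in general while mRNAs with upstream reading frames, above all Atf4, are translated more. Atf4 and its partners then raise genes of amino acid supply, redox balance and cell death. The exocrine pancreas carries a heavy secretory load, and loss of Perk or Xbp1 harms the exocrine pancreas.

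The libraries held 47308461 to 267463046 counts. All 9 duct epithelial markers were detected, and their summed level was 5974 to 14090 CPM (counts scaled to library size with edgeR's trimmed mean of M-values, TMM) across the libraries. The 8 acinar markers summed to 3.39 to 5.34 CPM, nearly all of it Cela1, with Cpa1 and Cpb1 at 0 in every library. The 5 endocrine markers summed to at most 0.184 CPM, with Ins1, Ins2 and Gcg at 0 in every library. Summed immune markers were 16.8 to 35 CPM in N, nearly all of it Csf1r and Cd68, with Ptprc at most at 0.074 CPM and Lyz2 at 1.2 CPM. In KP their median was 4.26 CPM in polysome-associated and 4.88 CPM in total mRNA, and the polysome-associated library of KP vehicle replicate 3 was the highest at 44.1 CPM, with Lyz2 at 24.4 CPM. The part of these transcripts in the results was not tested. In bulk RNA, fewer cells of a type and less RNA per cell cannot be told apart. No sequencing lane held both organoid types, so organoid type and lane cannot be told apart.

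Before the results, the likeness of the libraries has to be stated. Across 11438 genes, as deviations from the mean of each organoid type and fraction, the polysome-associated library labelled N vehicle replicate 3 correlated at 0.82 with the total library labelled N CR-31 replicate 3 and at 0.35 with the total library of its own lysate. For the polysome-associated library labelled N CR-31 replicate 3, the values were 0.72 with the total library labelled N vehicle replicate 3 and 0.33 with its own. The polysome-associated library labelled KP CR-31 replicate 1 likewise correlated at 0.21 with its own total library and at 0.69 with that of KP vehicle replicate 1. In the remaining 9 lysates the correlation with the own total library was 0.66 to 0.91, and 1 of them, N vehicle replicate 2, was slightly closer to the total library of N CR-31 replicate 2 (0.70). The main results that rest on the N libraries of number 3 are therefore given with and without both of those lysates, a choice made after seeing the data. Whether labels of these libraries were exchanged was not tested. An exchange of the polysome-associated libraries of N number 3 would turn the sign of its CR-31 ratios in that fraction.

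KP and N organoids under vehicle were compared first, in polysome-associated mRNA and in total mRNA. All 3 sensors were lower in KP polysome-associated mRNA, as were Herpud1, Ddit4 and Hspa5, while Sdf2l1, Creld2 and Edem1 were higher. At an edgeR quasi-likelihood adjusted p (Benjamini-Hochberg) under 0.25, 4 of 32 members were higher and 10 were lower, beside 19.4% and 23.9% of all genes tested. In total mRNA 2 members were higher and 4 were lower, beside 13.4% and 15.4% of all genes. The median log2 fold change of the 32 members was -0.42 in polysome-associated mRNA, where it was -0.08 over all genes, and -0.06 in total mRNA, where it was -0.03 over all genes. Without both N lysates of number 3, 4 members were higher and 8 lower in polysome-associated mRNA (25.2% and 27.3% of all genes), and 2 were higher and 2 lower in total mRNA (8.96% and 10.5%).

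**Figure D1:**
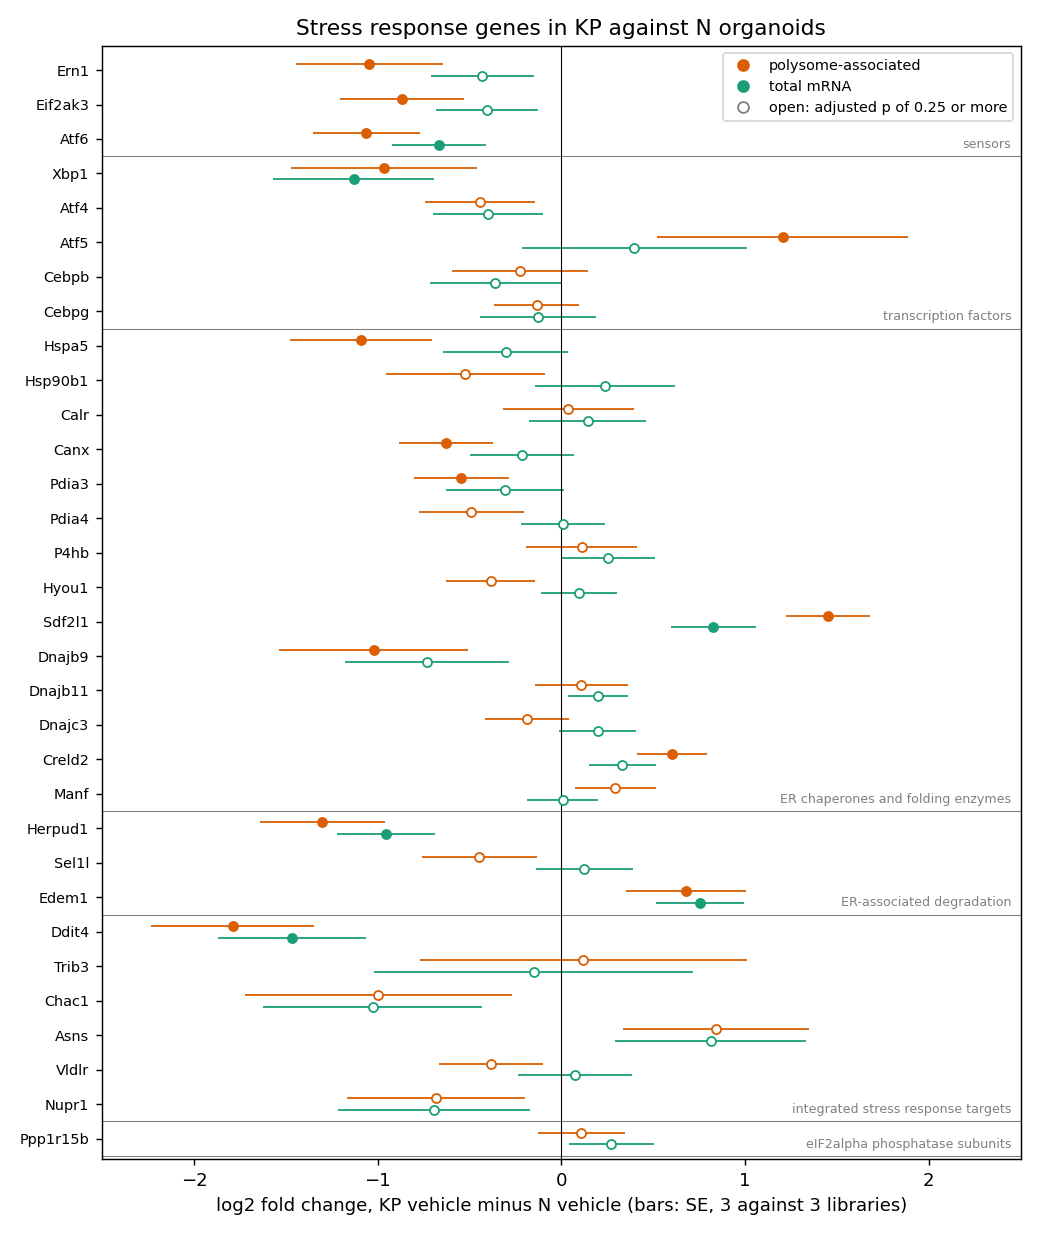
Log2 fold change of the 32 members between KP and N vehicle organoids (x axis, bars are SE, 3 against 3 libraries), in polysome-associated (orange) and total mRNA (green), with members grouped by role and filled symbols for adjusted p under 0.25. All 3 sensors sit below 0 in both fractions, and Sdf2l1 is farthest above 0 at 1.45 in polysome-associated mRNA.

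The 3 sensors fell together in polysome-associated mRNA. Ern1, the kinase and RNase that splices Xbp1, was at 17.99, 13.6 and 12.6 CPM in N vehicle and at 4.15, 11.1 and 6.19 CPM in KP vehicle, a log2 fold change of -1.05 ± 0.40 (SE, edgeR adjusted p = 0.0932). Every KP library lay below every N library, although KP replicate 2 came close. In total mRNA Ern1 was at 20.5, 11.6 and 17.6 CPM in N and at 10.6, 14.5 and 11.8 CPM in KP, which overlapped (-0.43 ± 0.28, adjusted p = 0.379).

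Eif2ak3, which encodes Perk, was at 21.9, 41.3 and 17.6 CPM in N and at 12.96, 15.9 and 15.4 CPM in KP polysome-associated mRNA (-0.87 ± 0.34, edgeR adjusted p = 0.0986). The groups did not overlap, and N replicate 2 stood above the other N libraries. In total mRNA the difference was -0.40 ± 0.28 (adjusted p = 0.412).

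Atf6, the sensor cut in the Golgi to release its transcription factor domain, was at 77.6, 57.4 and 69.0 CPM in N and at 24.2, 41.1 and 32.5 CPM in KP polysome-associated mRNA (-1.06 ± 0.29, edgeR adjusted p = 0.032). It was the sensor that was also called in total mRNA, where N libraries were at 72.9, 46.9 and 68.5 CPM and KP libraries at 33.9, 46.3 and 38.6 CPM (-0.66 ± 0.26, adjusted p = 0.133). Without both N lysates of number 3, all 3 sensors stayed called in polysome-associated mRNA, Ern1 at -1.14, Eif2ak3 at -1.09 and Atf6 at -1.04 (adjusted p 0.0944, 0.0299 and 0.0422), whereas Atf6 in total mRNA was at an adjusted p of 0.307. Leaving out KP vehicle replicate 1 took Ern1 to -0.77 (adjusted p = 0.279) and Eif2ak3 to -0.78 (0.254) in polysome-associated mRNA and Atf6 to -0.57 (0.382) in total mRNA, and leaving out N vehicle replicate 2 took Eif2ak3 to -0.42 (0.422). Leaving out N vehicle replicate 3 took Atf6 in total mRNA to -0.58 (0.312).

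**Figure D2:**
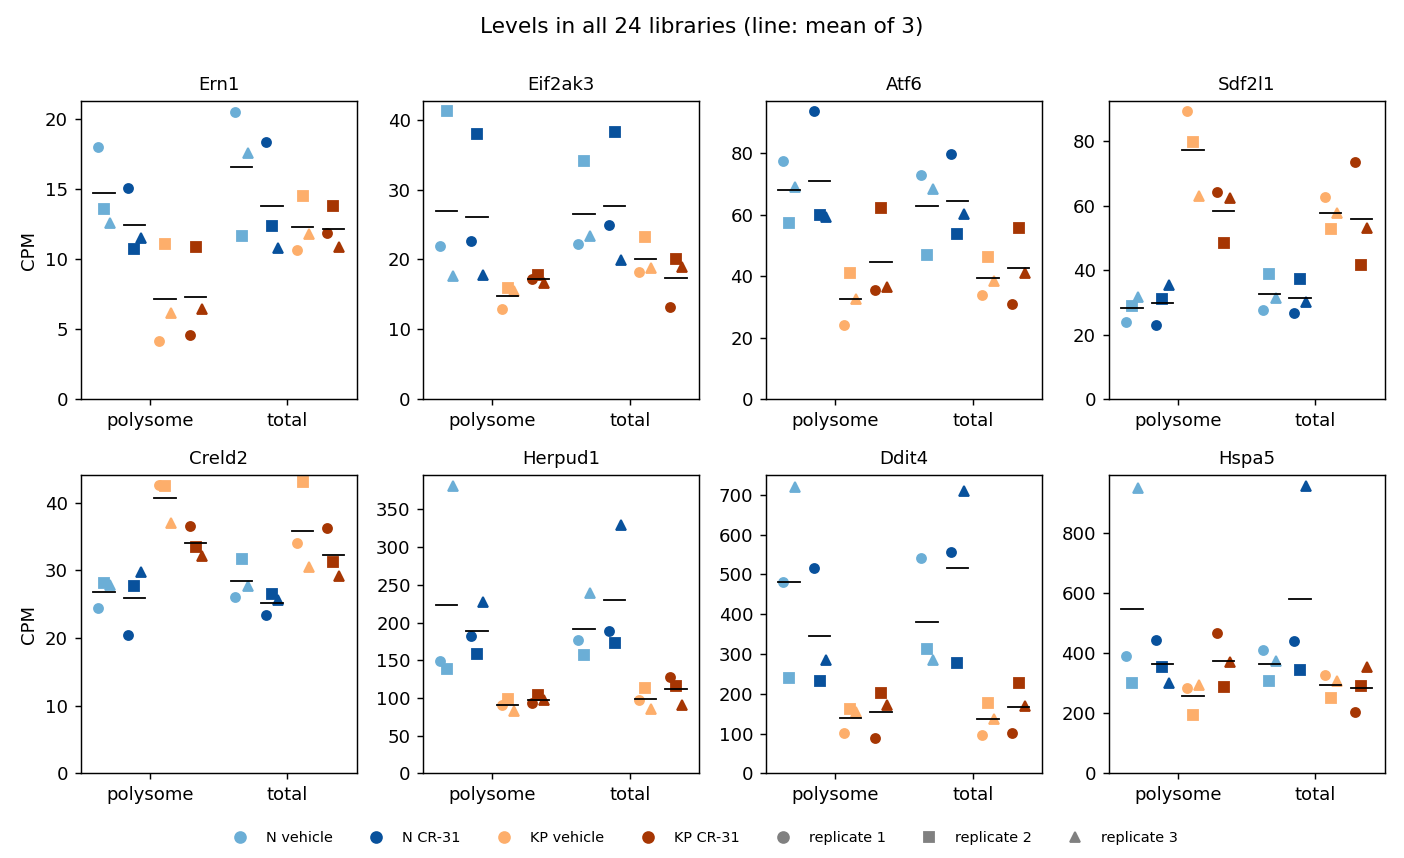
CPM of 8 members (y axis) in all 24 libraries, by fraction (x axis), organoid type and treatment (colour) and replicate number (symbol), with a line at the mean of 3. Sdf2l1 is higher in all 12 KP libraries than in any N library, and Herpud1 and Ddit4 are lower in all 12, while Hspa5 has 2 N libraries of number 3 far above the rest.

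Among the transcription factors, Atf4, the central factor of the integrated stress response, was at 469, 257 and 358 RPKM (reads per kilobase of transcript, scaled to depth) in total mRNA of N vehicle, and Xbp1 at 155, 387 and 452 RPKM. Atf4 had the higher mean (361 ± 106 against 331 ± 156 RPKM, SD, n = 3), but Xbp1 was above it in 2 of the 3 libraries, so their order did not hold against the spread. Cebpb was at a mean of 93.2 RPKM. Atf4 was at 797, 449.7 and 902 CPM in N and at 613, 566 and 401 CPM in KP polysome-associated mRNA, and the groups overlapped (-0.44 ± 0.30, edgeR adjusted p = 0.326). In total mRNA its difference was -0.40 ± 0.30 (adjusted p = 0.448).

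Xbp1, whose spliced form drives chaperone and degradation genes, was at 329, 773 and 1155 CPM in N and at 279, 429 and 449 CPM in KP polysome-associated mRNA (-0.96 ± 0.51, edgeR adjusted p = 0.211). In total mRNA it was at 382, 1007 and 1257 CPM in N and at 336.5, 403 and 469 CPM in KP (-1.13 ± 0.44, adjusted p = 0.134). N replicate 1 lay among the KP libraries in both fractions. The counts do not separate spliced from unspliced Xbp1, and both calls were lost without both N lysates of number 3 (-0.51 at an adjusted p of 0.416 and -0.80 at 0.37). In each fraction, leaving out single lysates also ended the call: in polysome-associated mRNA KP vehicle replicate 1 (-0.78, 0.439), 2 (-1.05, 0.298) or 3 (-1.08, 0.25) and N vehicle replicate 2 (-0.94, 0.322) or 3 (-0.53, 0.494), and in total mRNA KP vehicle replicate 1 (-1.02, 0.36) or 2 (-1.13, 0.26) and N vehicle replicate 2 (-1.004, 0.283) or 3 (-0.78, 0.415).

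Atf5, an Atf4-related factor of the mitochondrial and integrated stress responses, was at 248, 49.8 and 102 CPM in N and at 145, 438 and 339.6 CPM in KP polysome-associated mRNA (1.21 ± 0.68, edgeR adjusted p = 0.241). The groups overlapped, since N replicate 1 was above KP replicate 1. The difference was 1.06 at an adjusted p of 0.384 without both N lysates of number 3. It was also lost without KP vehicle replicate 2 (0.86, 0.499) or 3 (1.12, 0.354) without N vehicle replicate 2 (0.80, 0.50) or 3 (1.03, 0.384), without any KP CR-31 replicate (adjusted p 0.25, 0.27 and 0.271) and without N CR-31 replicate 3 (0.256). Cebpb and Cebpg, bZIP partners of Atf4, were at -0.23 ± 0.37 and -0.13 ± 0.23 in polysome-associated mRNA (adjusted p 0.71 and 0.727).

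The leaders of these mRNAs show the start codons at issue in translation under eIF2alpha phosphorylation. In GENCODE M21 transcripts on GRCm38 that match the deposited RefSeq entries, 15 of 36 members (41.7%) had an ATG in the leader, beside 49% of 11105 tested genes with a leader, and the median leader was 176 bases in the members and 166 in the tested genes. Atf4 had 3, of which ATG 2 opened a frame of 3 codons and ATG 3 a frame of 59 codons that ran into the coding sequence. Atf5 had 6, of which ATG 5 opened a frame of 63 codons that also ran into the coding sequence. Shown 5′ to 3′ with the ATG in capitals are the short and the overlapping frame of Atf4 and the overlapping frame of Atf5, because these are the sites that Atf4 regulation is known for:
Atf4, ATG 2: gcggccaccATGgcgtattag
Atf4, ATG 3: gcctaagccATGgcgctcttc
Atf5, ATG 5: gaaatttttATGaagaggaat

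Of the ER chaperones and folding enzymes, 2 of 14 tested rose and 4 fell in KP polysome-associated mRNA, with a median of -0.29, beside the 19.4% and 23.9% of all genes given above. Of the 4 falls only that of Canx stayed called without both N lysates of number 3, as given below. Sdf2l1, a cofactor of the chaperone Hspa5, was at 24.0, 29.1 and 31.8 CPM in N and at 89.3, 79.7 and 62.9 CPM in KP polysome-associated mRNA (1.45 ± 0.23, edgeR adjusted p = 0.0042). In total mRNA it was at 27.7, 38.9 and 31.3 CPM in N and at 62.8, 52.9 and 57.9 CPM in KP (0.83 ± 0.23, adjusted p = 0.0445). No KP library overlapped an N library in either fraction, and without both N lysates of number 3 the differences were 1.56 (0.00476) and 0.79 (0.162).

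Creld2, an ER protein secreted under stress with disulphide isomerase activity, was at 24.5, 28.1 and 27.8 CPM in N and at 42.6, 42.4 and 36.97 CPM in KP polysome-associated mRNA (0.60 ± 0.19, edgeR adjusted p = 0.0515). In total mRNA the difference was 0.33 ± 0.18 (adjusted p = 0.293). The groups did not overlap in polysome-associated mRNA, where the difference was 0.64 (0.038) without both N lysates of number 3.

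Hspa5, the ER Hsp70 chaperone also called BiP that holds the sensors inactive, moved the other way, and 1 library carried most of it. It was at 389.9, 299.5 and 949 CPM in N and at 285, 193 and 293 CPM in KP polysome-associated mRNA (-1.09 ± 0.39, edgeR adjusted p = 0.0765). In total mRNA it was at 411, 308 and 372 CPM in N and at 329, 249 and 307 CPM in KP (-0.30 ± 0.34, adjusted p = 0.634). N replicate 3 was far above the other N libraries in polysome-associated mRNA, and without both N lysates of number 3 the difference was -0.41 at an adjusted p of 0.285. Leaving out N vehicle replicate 3 alone gave -0.44 (0.284).

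Canx, a membrane lectin that holds glycoproteins during folding, fell by 0.63 on the log2 scale (adjusted p = 0.113) and Pdia3, its partner disulphide isomerase, fell by 0.54 (0.165) in polysome-associated mRNA. Dnajb9, an Hspa5 cochaperone that represses Ire1, fell by 1.02 (0.193), with N libraries at 15.6, 28.9 and 84.6 CPM and KP libraries at 19.99, 28.1 and 15.4 CPM. Without both N lysates of number 3 these were -0.27 (0.225), -0.29 (0.411) and -0.06 (0.927), so of the 3 only Canx stayed called. Leaving out KP vehicle replicate 1 ended the call of Canx (-0.54, 0.294), Pdia3 (-0.50, 0.338) and Dnajb9 (-0.98, 0.354), and leaving out N vehicle replicate 3 alone ended those of Canx (-0.30, 0.325), Pdia3 (-0.32, 0.382) and Dnajb9 (-0.08, 0.897). The calls of Pdia3 (-0.51, 0.311) and Dnajb9 (-0.83, 0.376) were further lost without KP vehicle replicate 2 and KP vehicle replicate 3 respectively, and that of Pdia3 without N vehicle replicate 2 (-0.56, 0.261).

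The remaining 8 tested chaperones and enzymes did not pass the test in either fraction. Their log2 fold changes in polysome-associated mRNA were -0.52 for Hsp90b1, the ER Hsp90, and -0.49 for Pdia4, a disulphide isomerase whose adjusted p of 0.253 lay just outside the threshold, and they reached 0.29 for Manf, a secreted Hspa5 partner. The N polysome-associated libraries of Hsp90b1 ranged from 176 to 607 CPM over both treatments, with N vehicle replicate 3 at the top, so its fall leans on that library. Calr, P4hb, Hyou1, Dnajb11 and Dnajc3 were at 0.04, 0.11, -0.38, 0.11 and -0.19. The row that Pdia6 shares with Atp6v1c2 was at -0.56 (adjusted p = 0.224) when shared rows were kept. Shared rows were not refitted without both N lysates of number 3.

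The promoters of this group hold the ER stress response element (ERSE), which Atf6 and Xbp1 are known to bind with NF-Y. The element was searched on both strands as CCAAT, 9 bases and CCACG in the RefSeq promoters on GRCm38.p6, from 250 bases before to 50 bases after the gene start. It was found in 8 of 32 members with an entry (Hspa5, Hsp90b1, Calr, Canx, Dnajc3, Creld2, Pdia6 and Syvn1), beside 0.137% of 27025 genes. The shorter form, ATTGG, 1 base and CCACG, was found in Dnajb11 and Herpud1, beside 0.0444% of genes. CCACG alone, which is part of both, was found in 26 of 32 members and in 35.5% of genes. Shown are elements of 3 chaperones whose levels are given library by library and of Herpud1, the degradation gene with the larger fall, 5′ to 3′ on the strand of the gene, with the fixed bases in capitals and 12 bases on each side. CGTGG and ATTGG are CCACG and CCAAT read on the other strand, and Hsp90b1 held another copy nearer its start:
Hspa5, chr2:34772013-34772055, plus strand: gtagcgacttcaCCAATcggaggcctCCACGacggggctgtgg
Hsp90b1, chr10:86705626-86705668, minus strand: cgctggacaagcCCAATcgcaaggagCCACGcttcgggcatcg
Creld2, chr15:88819508-88819550, plus strand: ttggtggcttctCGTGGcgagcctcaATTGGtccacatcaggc
Herpud1, chr8:94386365-94386399, plus strand: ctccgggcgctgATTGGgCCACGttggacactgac

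The members that hold the element did not share a direction between KP and N. In polysome-associated mRNA Creld2 rose by 0.60, Hspa5 and Canx fell by 1.09 and 0.63, and Hsp90b1, Calr and Dnajc3 did not pass the test. Sdf2l1 held none of the searched forms but CCACG.

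ER-associated degradation, which returns misfolded proteins to the cytosol for the proteasome, was split as well. Herpud1, which builds the degradation complex, was at 149, 138 and 381 CPM in N and at 90.4, 97.9 and 82.7 CPM in KP polysome-associated mRNA (-1.30 ± 0.34, edgeR adjusted p = 0.0268). In total mRNA it was at 177, 157 and 239 CPM in N and at 97.2, 114 and 85.0 CPM in KP (-0.95 ± 0.27, adjusted p = 0.0459). KP lay below N without overlap in both fractions, and without both N lysates of number 3 the differences were -0.66 (0.014) and -0.76 (0.0642).

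Edem1, which picks mannose-trimmed glycoproteins for degradation, was at 48.2, 48.95 and 17.1 CPM in N and at 62.6, 52.3 and 68.0 CPM in KP polysome-associated mRNA (0.68 ± 0.33, edgeR adjusted p = 0.171). In total mRNA it was at 43.5, 39.1 and 35.9 CPM in N and at 65.8, 61.1 and 73.3 CPM in KP (0.76 ± 0.24, adjusted p = 0.0727). The groups did not overlap in either fraction, and without both N lysates of number 3 the differences were 0.34 (0.202) and 0.69 (0.0741). In polysome-associated mRNA the call was lost without KP vehicle replicate 1 (0.66, 0.309) or 3 (0.59, 0.326) and without N vehicle replicate 3 alone (0.31, 0.278). Sel1l, the scaffold of the Syvn1 ubiquitin ligase, was at -0.45 ± 0.31 (adjusted p = 0.347), and the row that Syvn1 shares with Mrpl49 was at 0.31 (adjusted p = 0.195) when shared rows were kept.

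Among the targets of the integrated stress response, Ddit4, an inhibitor of mTORC1 that also answers to hypoxia and glucocorticoids, was the member with the largest fall. It was at 481, 240.1 and 718.5 CPM in N and at 102, 161 and 154 CPM in KP polysome-associated mRNA (-1.79 ± 0.44, edgeR adjusted p = 0.0227), and at 541.5, 312 and 286 CPM in N and at 97.5, 177 and 138 CPM in KP total mRNA (-1.47 ± 0.40, adjusted p = 0.0426). All KP libraries lay below all N libraries, and without both N lysates of number 3 the differences were -1.36 (0.0515) and -1.63 (0.0682).

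Trib3, Chac1, Asns, Vldlr and Nupr1 did not pass the test in either fraction. For Trib3 and Asns the N libraries fell apart by replicate number, with no overlap between the numbers over both treatments and fractions. For Chac1, Vldlr and Nupr1 some numbers overlapped. Trib3, a pseudokinase that feeds back on Atf4, was at 149 to 183.5 CPM in the 4 libraries of N replicate 1, at 10.4 to 11.2 CPM in those of N replicate 2 and at 48 to 94.3 CPM in those of N replicate 3. Chac1, which degrades glutathione, was at 79.6 to 92.1 CPM, 12.1 to 18.5 CPM and 49.9 to 109.8 CPM in the same order. Asns, asparagine synthetase, was at 204.7 to 278.5 CPM, 46.1 to 61.1 CPM and 128 to 169 CPM.

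Atf5 had the same order as these targets in replicates 1 and 2, at 186 to 248 CPM in N replicate 1 and 39.5 to 49.8 CPM in N replicate 2. Xbp1 and Nupr1, a small chromatin protein induced by stress, were instead lowest in N replicate 1. Nupr1 was at 70.8 to 87.8 CPM there, at 255 to 357 CPM in N replicate 2 and at 167 to 309.6 CPM in N replicate 3, and Xbp1 was at 284 to 382 CPM, 637 to 1007 CPM and 1062 to 1257 CPM. Atf4 itself was lowest in N replicate 2, at 397 to 458 CPM, beside 711 to 797 CPM in N replicate 1.

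KP replicates were closer together for these genes. Asns was at 235 to 345 CPM in all 12 KP libraries, Trib3 at 37.9 to 146 CPM and Chac1 at 18.1 to 56.9 CPM. The 4 libraries of a number come from 2 lysates and are not independent, and these orders within N are a description of 3 replicates.

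**Figure D3:**
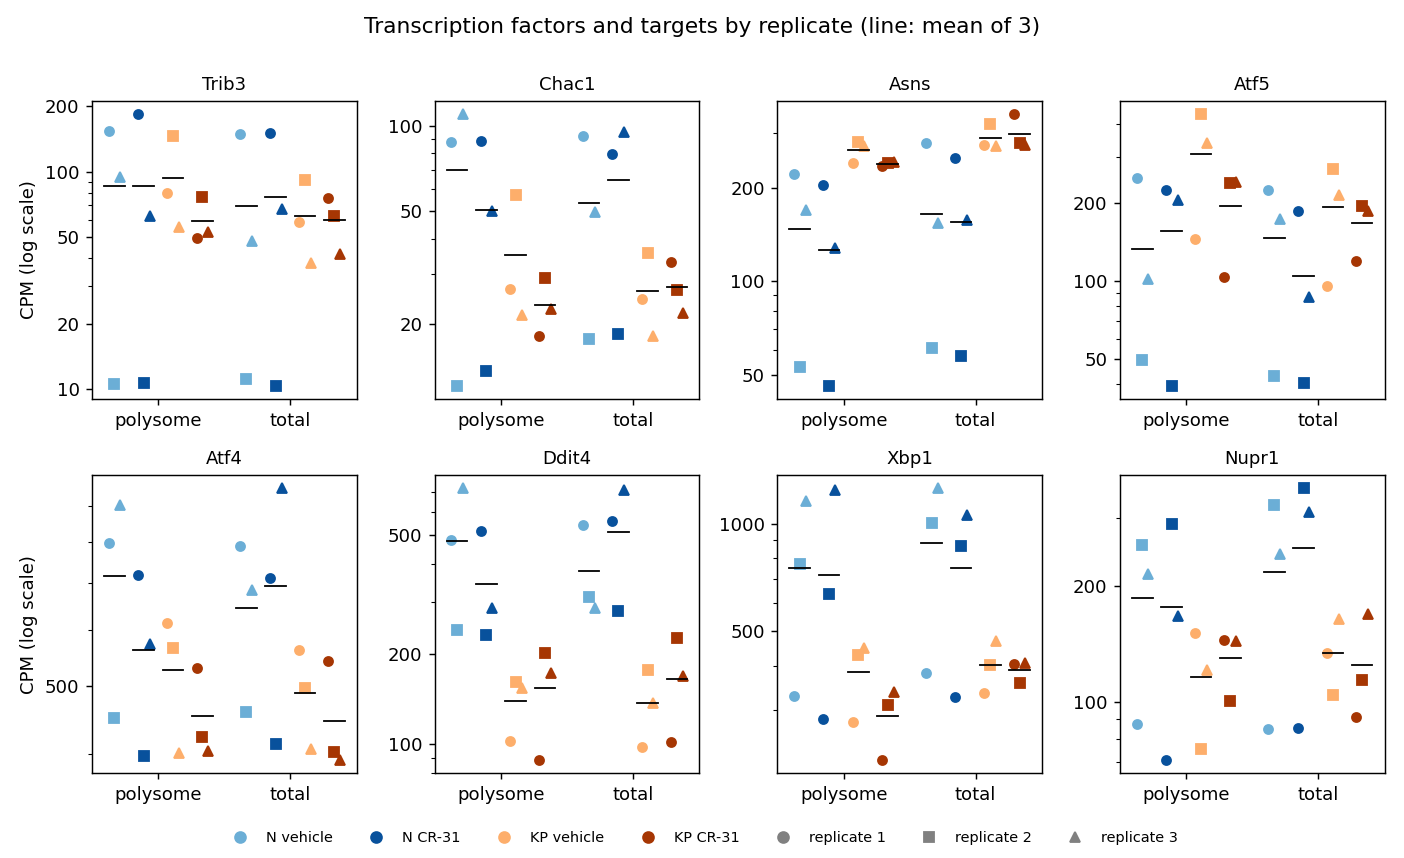
CPM (y axis, log scale) of 8 transcription factors and targets in all 24 libraries, by fraction (x axis), organoid type and treatment (colour) and replicate number (symbol), with a line at the mean of 3. N replicate 2 (squares) is lowest among the N libraries for Trib3, Chac1, Asns and Atf5 at both treatments and in both fractions, and N replicate 1 (circles) is lowest for Xbp1.

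A C/EBP-ATF response element, searched as TGATG, any base, AA and any base on both strands, or any base, TT, any base and CATCA on the other strand, was found in the promoters of Asns, Chac1, Herpud1, Nupr1, Trib3 and Vldlr, 6 of 32 members, beside 4.5% of 27025 genes. It does not overlap the ERSE forms in its letters. Those of Asns and Chac1 are shown because both were among the targets that differed most between N replicates, with the fixed bases in capitals and 12 bases on each side of the 9 searched:
Asns, chr6:7693212-7693244, minus strand: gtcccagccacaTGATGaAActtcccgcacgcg
Chac1, chr2:119351036-119351068, plus strand: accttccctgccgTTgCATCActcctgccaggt

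The eIF2alpha phosphatase subunits counter the kinases. Ppp1r15b, the constitutive subunit, was at 123, 88.1 and 77.7 CPM in N and at 107, 116 and 88.0 CPM in KP polysome-associated mRNA (0.11 ± 0.24, edgeR adjusted p = 0.788), and the groups overlapped. The row that the inducible subunit Ppp1r15a shares with Tulp2 was at 101, 71.7 and 399.7 CPM in N and at 149, 101 and 87.7 CPM in KP, with N replicate 3 far above the others (-0.77, adjusted p = 0.332 when shared rows were kept). The row that Ddit3, the death-promoting factor Chop, shares with Mars was at 103, 55.6 and 168 CPM in N and at 94.4, 84.2 and 89.4 CPM in KP (-0.29, adjusted p = 0.582). N replicate 3 was the highest N library for both shared rows. They were not refitted without both N lysates of number 3, so whether these directions hold without them is not shown.

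CR-31-treated N and KP libraries gave a further look at the same genes. Over the 6 polysome-associated libraries of each type, both treatments together, Sdf2l1, Creld2 and Asns were higher in KP without overlap and Herpud1 and Ddit4 were lower, beside 6.91% and 7.61% of all genes in those directions. Sdf2l1 ranged from 23.02 to 35.5 CPM in N and from 48.6 to 89.3 CPM in KP, and Ddit4 from 232 to 718.5 CPM in N and from 88.5 to 201 CPM in KP. The 3 sensors and Edem1 overlapped over these libraries. The lowest N and highest KP values were 10.7 and 11.1 CPM for Ern1, 17.6 and 17.8 CPM for Eif2ak3 and 57.4 and 62.4 CPM for Atf6. Libraries with the same replicate number are not independent here.

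Further lists of related genes were counted beside the members, in polysome-associated mRNA of KP against N, where 19.4% of all genes were higher and 23.9% lower, and 25.2% and 27.3% without both N lysates of number 3. Of 17 tested genes of ER folding and glycan control, 3 rose and 4 fell, or 7 and 4 without those lysates. Agr2, a disulphide isomerase of mucus-secreting cells, was highest (6.98 ± 0.82, edgeR adjusted p = 0.000963, and 7.33 without them), with Fkbp14 lowest (-1.76, 0.0365, and -1.59 without them). Of 15 genes of ER translocation, 4 rose, led by Ssr2 (0.90, 0.0726), and 2 fell, led by Sec63 (-0.94, 0.0238), or 5 and 2 without those lysates. Of 17 further genes of ER-associated degradation, 2 rose and 3 fell, with Os9 lowest (-0.86, 0.0863), or 3 and 5 without them. Of 9 sensor relatives, Creb3l1 (1.57, 0.063) and Atf6b (0.46, 0.121) rose and Creb3l2 fell (-1.60, 0.0728), and 2 rose and 2 fell without them.

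Of 12 genes of the eIF2 kinases, eIF2 and its exchange factor eIF2B, 3 rose, led by Eif2b5, the catalytic eIF2B subunit (0.88, edgeR adjusted p = 0.0171), and Eif2ak2, the kinase Pkr, fell (-0.51, 0.188), or 5 and 3 without both N lysates of number 3. Of 18 further Atf4 targets, Eif4ebp1 (1.18, 0.117), Psat1 (1.16, 0.0626) and Pck2 (1.07, 0.0791) rose and Atf3 (-2.98, 0.0638) and Vegfa (-0.77, 0.14) fell. Without both N lysates of number 3, 7 of the 18 rose and 0 fell, and Atf3 was at 0.38 (0.179). Of 5 further mRNAs with upstream reading frames, none rose and Ifrd1 (-1.03, 0.0717) and Gadd45g (-0.92, 0.0146) fell, or 0 and 3 without those lysates. Several counts lie away from the shares over all genes, such as the 7 rises and 0 falls among the 18 Atf4 targets without both N lysates of number 3. The lists are small, and no count was tested against those shares.

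Translation efficiency, the change in polysome-associated mRNA relative to total mRNA, was tested as an interaction of fraction and organoid type. No gene passed in edgeR (0% of 11438 tested), with 1296 genes and 5 members at an unadjusted p under 0.05 and a smallest adjusted p of 0.433. The 5 members were Ern1 (-0.74 ± 0.31), Hyou1 (-0.49 ± 0.21), Atf6 (-0.43 ± 0.19), Atf5 (0.79 ± 0.33) and Sdf2l1 (0.61 ± 0.22). A regression of polysome-associated on total mRNA, with variances moderated by limma, called 595 genes higher and 606 lower. Sdf2l1 was alone among the members in that regression (1.00 ± 0.34, adjusted p = 0.216, slope 0.53). Without both N lysates of number 3, 8 members passed as higher and 7 as lower, beside 20% and 15.8% of all genes. The 3 sensors were among the lower, Ern1 at -0.89 (0.114), Eif2ak3 at -0.55 (0.133) and Atf6 at -0.48 (0.122), with Sel1l at -0.76 (0.08), and Sdf2l1 at 0.73 (0.08), Chac1 at 0.67 (0.191) and Cebpb at 0.62 (0.0832) were among the higher.

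The second question was what 1 h of CR-31 did to these mRNAs. No member and no other gene passed in edgeR in either organoid type, in polysome-associated mRNA, total mRNA or translation efficiency, nor for the difference of the CR-31 effect between KP and N (0% of 11438 genes in all 7 tests). At an unadjusted p under 0.05 there were 371 genes and 0 members in KP polysome-associated mRNA, 86 and 0 in KP total mRNA, and 627 and 0 in KP translation efficiency. In N the numbers were 49 genes with Pdia3 (-0.59 ± 0.26), 321 genes with Hsp90b1 (1.12 ± 0.39) and Dnajb11 (0.51 ± 0.17), and 328 genes with 0 members. The change of Hsp90b1 in N total mRNA was carried by number 3, which went from 118 to 441 CPM, whereas numbers 1 and 2 went from 117 to 139 and from 111 to 173 CPM. With both N lysates of that number left out, it was 0.46 ± 0.32 (unadjusted p = 0.182 in edgeR), Dnajb11 was 0.43 ± 0.20 (0.0559), and Pdia3 in polysome-associated mRNA was -0.26 ± 0.28 (0.365). For the difference between KP and N they were 236 genes and 0 members. DESeq2 called 0 genes in either type in polysome-associated mRNA, 8 in KP total mRNA and 13 in N total mRNA, and 0 members. The regression on total mRNA without the block also called 0 genes in either type.

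Vehicle and CR-31 libraries of the same number deviated together within each organoid type, so the comparison was also fitted with the replicate number as a block. In KP polysome-associated mRNA, 2 members then rose and 4 fell at an edgeR adjusted p under 0.25 with the replicate block, beside 9.38% and 8.98% of all genes. In N, and for the difference between KP and N, no gene passed with the block (0%). In both organoid types the vehicle and CR-31 libraries of number 2 lay on different lanes, so within that pair treatment and lane cannot be told apart, and in the blocked fit lane was not a term. With block and lane together, which left 2 residual degrees of freedom, 0 genes passed in KP polysome-associated mRNA, and 245 genes and 0 members had an unadjusted p under 0.05 in edgeR.

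Atf6 rose in KP from 24.2, 41.1 and 32.5 CPM under vehicle to 35.5, 62.4 and 36.4 CPM under CR-31 (0.44 ± 0.15, edgeR adjusted p = 0.20). Sel1l rose from 24.6, 38.5 and 33.5 CPM to 42.2, 52.3 and 37.9 CPM (0.47 ± 0.15, 0.20). For both genes replicate 3 moved least.

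Xbp1 fell in KP from 279, 429 and 449 CPM to 218, 311 and 339 CPM (-0.41 ± 0.15, edgeR adjusted p = 0.208). Atf5 fell from 145, 438 and 339.6 CPM to 104, 239 and 239.5 CPM (-0.62 ± 0.24, 0.226). Both were lower in all 3 replicates. Trib3 fell from 80.3, 146 and 55.7 CPM to 49.5, 76.8 and 52.7 CPM (-0.57 ± 0.21, 0.209), with replicate 3 nearly level. Sdf2l1 fell from 89.3, 79.7 and 62.9 CPM to 64.2, 48.6 and 62.6 CPM (-0.40 ± 0.16, 0.224), with replicate 3 level. The move was largest in replicate 2 for each of the 6 except Sel1l. With lane as a further term Atf6 was at 0.36, Sel1l at 0.48, Xbp1 at -0.38, Atf5 at -0.49, Trib3 at -0.39 and Sdf2l1 at -0.24 (edgeR adjusted p = 0.963 for each).

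The polysome-associated library labelled KP CR-31 replicate 1, which was unlike the total library of its own lysate, enters these blocked values. With both KP lysates of number 1 left out, a choice made after seeing the data, 0 members passed in KP polysome-associated mRNA in the blocked edgeR fit, beside 0.00874% of all genes, with 729 genes and 0 members at an unadjusted p under 0.05. Atf6 was then at 0.38, Sel1l at 0.31, Xbp1 at -0.44, Atf5 at -0.69, Trib3 at -0.50 and Sdf2l1 at -0.36 (adjusted p 0.658 to 0.66).

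**Figure D4:**
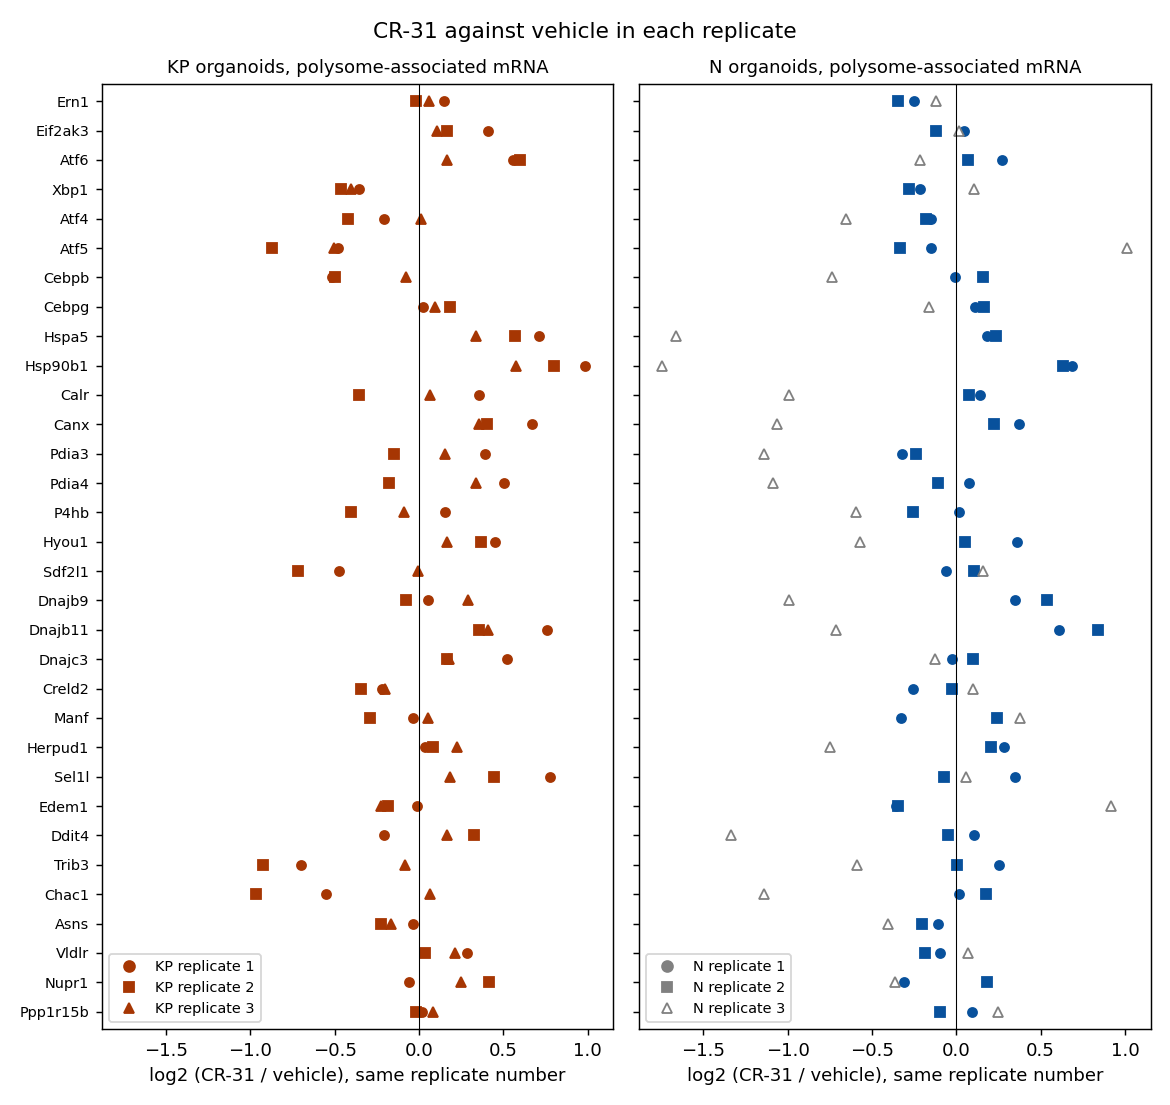
Log2 ratio of CR-31 to vehicle in polysome-associated mRNA (x axis) for each of the 32 members (y axis) and each replicate number (symbol), in KP (left) and N (right), with N replicate 3 as open symbols. In KP the 3 symbols of Hsp90b1, Hspa5 and Canx all lie above 0, and in N replicate 3 lies at -1.74, -1.66 and -1.06 for the same genes while the other 2 lie above 0, and the labels of that replicate's libraries are in doubt.

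With all libraries, 12 of 32 members had a log2 ratio above 0 in all 3 KP replicates and 8 one below 0, beside 31.3% and 27.8% of all genes. Those that did not pass the test were Hsp90b1, Hspa5, Canx, Dnajb11, Hyou1, Dnajc3, Eif2ak3, Cebpg, Herpud1 and Vldlr above 0, and Cebpb, Creld2, Edem1 and Asns below 0. Hsp90b1 was at 261, 181.5 and 296 CPM under vehicle and at 516, 315 and 441 CPM under CR-31, and its log2 ratios were 0.98, 0.80 and 0.57. Hspa5 had ratios of 0.71, 0.57 and 0.34, Canx of 0.67, 0.40 and 0.36, and Dnajb11, an Hspa5 cochaperone, of 0.76, 0.35 and 0.41. Cebpb, a transcription factor of the same response, had ratios of -0.52, -0.50 and -0.08, and Creld2 of -0.22, -0.34 and -0.20. In N the ratios of Hsp90b1 were 0.69, 0.63 and -1.74, and those of Dnajb11 were 0.61, 0.84 and -0.72.

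Replicate 3 of N stood apart from the other 2 in this contrast for many members. Over 11438 genes the CR-31 change in polysome-associated mRNA correlated with that in total mRNA at -0.68 in N replicate 3 and at 0.40 and 0.20 in N replicates 1 and 2, and at -0.28, 0.51 and 0.19 in KP replicates 1, 2 and 3. When both N lysates of number 3 were left out and the block was kept, the KP log2 fold changes stayed nearly as they were and their standard errors fell, since the spread is estimated over both organoid types. In that fit 12 members rose and 8 fell in KP polysome-associated mRNA, beside 28.7% and 26% of all genes. With both KP lysates of number 1 left out as well, 7 rose and 8 fell, beside 17.9% and 20.4% of all genes, and 2 residual degrees of freedom were left. Lane was not added to the fit of 20 members, since 1 residual degree of freedom would be left.

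Of the 14 tested chaperones and enzymes 7 rose in that fit and 2, Sdf2l1 and Creld2, fell (-0.40 and -0.25), and those that rose included Hsp90b1 (0.79 ± 0.12, edgeR adjusted p = 0.000427), Hspa5 (0.54 ± 0.12, 0.00346), Dnajb11 (0.51 ± 0.11, 0.0033) and Canx (0.48 ± 0.12, 0.00711). The sensors Atf6 (0.44 ± 0.10, 0.00552) and Eif2ak3 (0.23 ± 0.10, 0.0946) rose too. Of 5 transcription factors 4 fell, Atf5 (-0.62 ± 0.12, 0.00168), Xbp1 (-0.41 ± 0.11, 0.0127), Cebpb (-0.36 ± 0.12, 0.0262) and Atf4 (-0.20 ± 0.12, 0.208). The targets Trib3 (-0.57 ± 0.13, 0.00541) and Chac1 (-0.49 ± 0.14, 0.0172) fell, while Nupr1 and Vldlr rose by 0.20 and 0.18. With both KP lysates of number 1 left out as well, the calls of Eif2ak3 (0.10, edgeR adjusted p = 0.655), Atf4 (-0.24, 0.362) and Vldlr (0.09, 0.705) were lost. Among the chaperones and enzymes, those of Pdia4 (0.05, 0.879), Hyou1 (0.23, 0.332) and Dnajc3 (0.14, 0.53) were lost too.

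In N, with 2 replicates left, 3 members rose and 1 fell, beside 9.2% and 5.91% of all genes. Dnajb11 rose by 0.73 ± 0.14 (edgeR adjusted p = 0.0135), Hsp90b1 by 0.67 ± 0.14 (0.026) and Dnajb9 by 0.45 ± 0.13 (0.068), and Edem1 fell by 0.35 ± 0.12 (0.13). In the blocked fit with all libraries Hsp90b1 (-0.10), Dnajb9 (-0.03) and Edem1 (0.06) had the other sign. The comparison of types below is from the fit without both N lysates of number 3. The CR-31 effect differed between KP and N for 9 members in that fit, 3 more positive and 6 more negative in KP, beside 13.9% and 13.2% of all genes. Trib3 (-0.71 ± 0.21, 0.093), Chac1 (-0.59 ± 0.22, 0.142), Cebpb (-0.45 ± 0.18, 0.16), Sdf2l1 (-0.43 ± 0.19, 0.187), Atf5 (-0.38 ± 0.19, 0.226) and Dnajb9 (-0.37 ± 0.16, 0.188) were more negative in KP, and Pdia3 (0.41 ± 0.20, 0.22), Ern1 (0.35 ± 0.18, 0.247) and Vldlr (0.31 ± 0.15, 0.216) were more positive. For Hsp90b1 and Dnajb11 the difference did not pass. With both KP lysates of number 1 left out as well, only Trib3 (-0.68, edgeR adjusted p = 0.189) and Chac1 (-0.60, 0.234) kept the call of a difference. The other named members were then at adjusted p of 0.317 to 0.666.

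In KP translation efficiency, the regression on total mRNA with the replicate block called 3 members higher and 3 lower, beside 8.14% and 8.84% of all genes. The study accepts such calls only where the slope of polysome-associated on total mRNA lies between -1 and 2. Dnajb11, Hsp90b1 and Edem1 had slopes of -3.89, -1.20 and -1.62, so their calls lie outside those limits and are not read as changes. Within them were Sel1l (0.47 ± 0.17, adjusted p = 0.235, slope -0.12), Atf5 (-0.70 ± 0.24, 0.232, slope -0.71) and Xbp1 (-0.40 ± 0.14, 0.233, slope 0.13). Of the 1942 genes called, 1443 were within the limits. The KP CR-31 replicate 1 lysate, whose libraries were unlike each other, is part of that fit.

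A last comparison set polysome-associated against total mRNA within the same vehicle lysates. In N, Hsp90b1 was higher in polysome-associated mRNA and Manf lower, 1 member in each direction, beside 8.83% and 6.36% of all genes. In KP, 5 members were higher and 7 lower, beside 14.2% and 13.3% of all genes. Hsp90b1 was the only member called higher in both organoid types. In N, 4 members were higher and 11 lower when both lysates of number 3 were left out, beside 15% and 20.7% of all genes.

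Hsp90b1 had log2 ratios of 0.59, 1.32 and 2.36 in N vehicle (1.42 ± 0.42, edgeR adjusted p = 0.083) and of 0.71, 0.95 and 0.94 in KP vehicle (0.86 ± 0.40, 0.217). The ratio was above 0 in 11 of 12 lysates, CR-31 ones included, the exception being N CR-31 replicate 3 at -1.28. That value and the 2.36 of N vehicle replicate 3 come from libraries whose labels are in doubt. An exchange of those polysome-associated libraries would put the exception above 0 and lower the 2.36, and it was not tested. Manf had ratios of -0.26, -0.51 and -0.51 in N vehicle (-0.42 ± 0.13, 0.102) and of -0.06, -0.07 and -0.33 in KP vehicle. The N values were 0.94 ± 0.24 (0.0338) for Hsp90b1 and -0.40 ± 0.14 (0.0852) for Manf when both lysates of number 3 were left out.

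In KP vehicle all 3 sensors were lower in polysome-associated than in total mRNA. Ern1 had ratios of -1.36, -0.39 and -0.93 (-0.89 ± 0.22, edgeR adjusted p = 0.0614), Eif2ak3 of -0.48, -0.55 and -0.29 (-0.44 ± 0.16, 0.132) and Atf6 of -0.49, -0.17 and -0.25 (-0.30 ± 0.13, 0.196). The same 3 genes were at -0.15, -0.05 and 0.13 on average in N vehicle. Pdia4 (-0.57, 0.121), Calr (-0.44, 0.241), Sel1l (-0.43, 0.162) and Ppp1r15b (-0.40, 0.127) were also lower on KP polysomes.

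Atf5 (0.65 ± 0.23, edgeR adjusted p = 0.126), Trib3 (0.56 ± 0.21, 0.14), Sdf2l1 (0.41 ± 0.16, 0.149) and Cebpg (0.34 ± 0.17, 0.246) were higher on KP polysomes, with Atf5 at 0.60, 0.70 and 0.66 in its 3 lysates. Under CR-31 the KP ratios of Atf5 were -0.20, 0.30 and 0.36. Atf4 was near 0 in both types, at 0.13 ± 0.16 in N and 0.10 ± 0.16 in KP (adjusted p 0.726 and 0.74). Without KP vehicle replicate 1, 2 or 3, with 2 lysates left, 0, 1 and 2 members were called in KP, beside 0.481%, 0.525% and 6.08% of all genes, and the log2 ratio of Ern1 was -0.66, -1.15 and -0.87 and that of Atf5 0.68, 0.63 and 0.66. Without N vehicle replicate 2 or 3, 0 and 9 members were called in N, beside 1.75% and 22.1% of all genes, and Hsp90b1 was at 1.501 and 0.98.

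**Figure D5:**
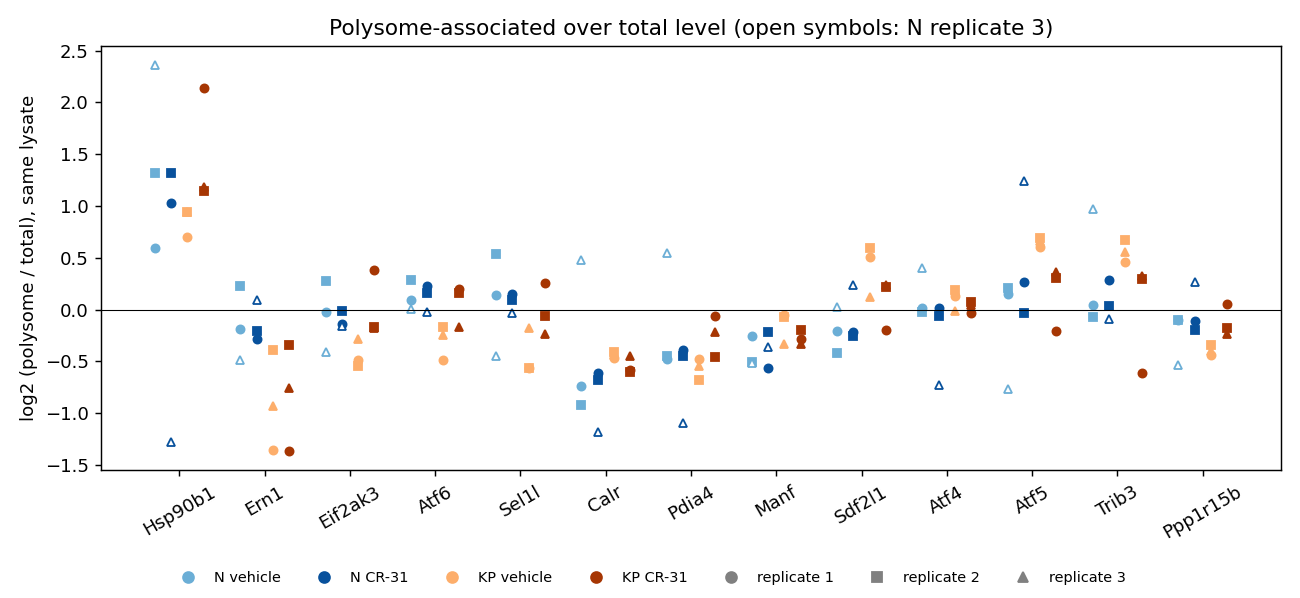
Log2 ratio of polysome-associated to total level (y axis) in the same lysate for 13 members (x axis), coloured by organoid type and treatment, with symbols for replicate number and open symbols for N replicate 3. Hsp90b1 lies above 0 in 11 of 12 lysates, Ern1 lies below 0 in all 6 KP lysates, and Atf4 lies close to 0 except in N replicate 3. The lysate with Hsp90b1 below 0 is N CR-31 replicate 3, and the labels of that replicate's libraries are in doubt.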

How the data were processed

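Polysome-associated and total mRNA were sequenced by the authors, aligned with HISAT2, with reads of several sites dropped, and counted per RefSeq gene with RPKMforgenes. The build is named hg38 in the sources used here, although the rows are mouse genes. The deposited counts per gene are not normalized and were used for every test. The deposited RPKM values, scaled by the authors for length and depth, served only to compare levels between genes. The members and lists were chosen with earlier results of these data known. Part of the tumour genotype is not reported here.

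Of 19895 rows, 1042 with several symbols were left out, and 11438 genes with a count above 0 in all 24 libraries were tested. Counts were normalized by TMM over the 24 libraries and fitted by edgeR 4.0.16 (R 4.3.3) quasi-likelihood models with 4 groups per fraction; for translation efficiency, fraction and group interacted in a model that kept each lysate as its own block. Adjusted p (Benjamini-Hochberg) under 0.25, the study's threshold, made a call. Alternatives used DESeq2 1.42.0, limma 3.58.1, other normalizations and filters, blocks, lanes and left-out lysates. Scripts were tested on simulated counts, where changed genes were recovered. Libraries held 47308461 to 267463046 counts.

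Vehicle and CR-31 libraries with the same number correlated in their deviations from the group means (0.56 to 0.89 in N, 0.45 to 0.80 in KP), which pairs them. N and KP libraries did not (-0.17 to 0.28). Values per library were named for the sensors, the transcription factors, the phosphatase subunits, Hspa5 and the called members with the 6 largest changes of a comparison, and of each further list at most the 3 largest rises and falls.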

Additional observations from a re-analysis of the deposited data

How the results depend on the processing

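Normalization by relative log expression or upper quartile, no filter on low counts, edgeR's expression filter and kept shared rows left the counts of members called within 1.5 times, as did DESeq2 for the comparisons within a fraction. A lane term was fitted only for CR-31, with 0 members called. With lane and block together, added after seeing the data, Hsp90b1 alone of the members was called under CR-31, in N total mRNA (edgeR adjusted p = 0.0251). The share over all genes for that test is not given here. In polysome-associated mRNA 0 members were called. With both N lysates of number 3 left out this fit was not used, since it leaves 1 residual degree of freedom. At an adjusted p under 0.05, 4 members were called between KP and N in polysome-associated mRNA (15.2% of all genes), 3 in total mRNA (9.27%), and 0 between polysome-associated and total mRNA in N or KP (3.58% and 1.12%). Leaving out each lysate in turn gave 7 to 18 members in KP against N polysome-associated mRNA (28.9% to 47.9% of all genes), 4 to 9 in total mRNA (14.3% to 33.5%), 0 to 6 in translation efficiency (0% to 18.8%), 0 to 9 between fractions in N (1.75% to 22.1%) and 0 to 2 between fractions in KP (0.481% to 6.08%). The regression on total mRNA gave 1 member for KP against N. With the replicate block, CR-31 in KP gave 6 members in polysome-associated mRNA, 6 with shared rows kept and 6 in the blocked regression, and it changed no other CR-31 call. N and KP share only numbers. A block over both also called members in both fractions, but the share over all genes in that fit is not given here, so the counts are left out. Without both N lysates of number 3, chosen after seeing the data, 15 members were called in KP against N translation efficiency and 15 between fractions in N, and with the block 20 in KP, 4 in N and 9 for their difference under CR-31. Without both KP lysates of number 1 the blocked fit gave 0 members in polysome-associated mRNA and 6 in N total mRNA, and without those of N number 3 too it gave 15 in KP and 4 in N polysome-associated mRNA, 2 for their difference, and 12 in KP and 11 in N total mRNA. Of 480 refits of single members, 380 kept direction and side of the threshold, 82 lost the call, 18 were stronger and 0 changed sign. Members called only without N number 3 are not among them, and of these Hsp90b1 (-0.10), Dnajb9 (-0.03) and Edem1 (0.06) in N and Dnajb9 for the difference (0.11) had the other sign in the blocked fit with all libraries. The planned blocked regression for KP against N was not run, since those numbers do not pair. The cause of these shifts was not tested. Each group had 3 libraries, and whether depth limits the calls was not tested.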
